A study of Danio rerio with 12 samples.

Results

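At 24 hours post-fertilization (hpf), the sites bound by p63 in wild type (WT) zebrafish embryos were sorted by whether Sox3 had a peak at the same place. The peaks of 2 p63 libraries and 1 Sox3 library were merged into 81977 regions wherever peaks shared at least 1 bp. A shared site had a peak in both p63 lists and in the Sox3 list. A p63-only site had a peak in both p63 lists and none in the Sox3 list, and a Sox3-only site had a Sox3 peak and none in either p63 list. There were 5692 shared, 4718 p63-only and 52565 Sox3-only sites, which together made up 62975 of the merged regions. The other regions had a peak in 1 p63 list only. Of these, 7760 carried replicate 2 and Sox3, 7129 replicate 2 alone, 2339 replicate 1 alone and 1774 replicate 1 and Sox3.

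p63 is a transcription factor of the p53 family and a master regulator of the epidermis, the outer layer of the skin. Sox3 belongs to the SoxB1 group of HMG-box factors, which mark the neural plate and neural progenitors. Both lineages arise from the ectoderm, and p63 and Sox3 recognize different DNA motifs.

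The series measured binding by ChIPmentation, in which chromatin captured by an antibody is tagged with sequencing adaptors by the Tn5 transposase while on the beads. All 3 libraries at 24 hpf came from whole WT embryos, pooled for each library, so 2 peaks at one place need not come from the same cells. The 9 other libraries are used below as readouts that took no part in sorting the sites. They covered p63 in WT embryos at 80% of epiboly (gastrulation) and at 36 hpf with n = 2 each. They also covered Sox3 in WT embryos at 80% of epiboly with n = 1, and Sox3 at 36 hpf in tp63-/- and WT embryos with n = 2 each. The tp63-/- embryos carry a CRISPR/Cas9 deletion in tp63 that truncates every isoform of p63.

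The p63 lists at 24 hpf held 14707 peaks from 12.1 M tags in replicate 1 and 25659 peaks from 16.5 M tags in replicate 2, and the Sox3 list held 67886 peaks from 11.6 M tags (M, megatags that entered the peak call, as recovered from the lists). The median pileup at a summit was 15 and 17 tags in the p63 lists and 17 tags in the Sox3 list. Depth was alike for p63 replicate 1 and Sox3 and higher for p63 replicate 2. The lists differed in length far more than in the tags under a called peak. Pileup was read only at peaks that passed the same cutoff, so like medians do not show like enrichment. A place without a peak is one that did not pass the call, which does not show absent binding. There was a single Sox3 library at 24 hpf, and the study states that another replicate was excluded for low sample quality. The spread of Sox3 is thus unknown, and an exact permutation test of 2 libraries against 1 cannot give a p below 0.333. The differences between classes within the 24 hpf lists are therefore descriptions with no test.

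In the full lists most p63 sites lay under a Sox3 peak, while few Sox3 peaks lay at a p63 site. There were 10410 p63 sites against 67791 Sox3 regions, so the second share would be low even with Sox3 at every p63 site. The part of these unequal numbers in the contrast was not tested. Of the 10410 p63 sites, 54.7% carried Sox3 (95% Clopper-Pearson interval 53.7 to 55.6, for counting error only). Of the 67791 regions with a Sox3 peak, 8.40% carried both p63 lists (8.19 to 8.61) and 22.5% carried at least 1 (22.1 to 22.8). Regions found by p63 replicate 1 alone carried Sox3 in 43.1% of cases (41.6 to 44.7) and those found by replicate 2 alone in 52.1% (51.3 to 52.9). The share was therefore lower where the p63 replicates did not find the same site. Seen the other way, a replicate 1 region recurred in replicate 2 in 76.2% of cases where Sox3 was present and in 66.9% where it was absent, and a replicate 2 region recurred in replicate 1 in 42.3% and 39.8%. Since all lists were merged together, a Sox3 peak could join p63 peaks that do not overlap each other. Such joining can raise the recurrence where Sox3 is present, and its part was not tested.

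The share of p63 sites with Sox3 moved with the length of the lists. With the Sox3 list alone shortened to its 14707 strongest peaks, a setting added after seeing the data, it was 26.6%, from 2758 shared and 7616 p63-only sites. With the 14707 strongest peaks of every list it was 24.7%, from 2111 shared and 6447 p63-only sites, beside 9626 Sox3-only sites. With only the peaks of all 3 lists that had a −log10 q of at least 10 it was 34.3%, from 1525 shared and 2924 p63-only sites.

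The mix of classes differed little between chromosomes. The share of p63 sites with Sox3 had a median of 55.0% over chromosomes 1 to 25, with the lowest value of 46.5% on chromosome 4 and the highest of 62.2% on chromosome 11. The share of Sox3 regions with both p63 lists ran from 6.89% on chromosome 14 to 9.55% on chromosome 22. Outside these chromosomes lay 2.93% of the shared, 1.78% of the p63-only and 1.55% of the Sox3-only sites.

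The rank of a factor at shared and solo sites was read from the percentile of −log10 q within its own list, where 100 is the strongest peak. Sox3 stood higher in its list where p63 had peaks too. Its median percentile was 76.7 at shared sites (interval 75.6 to 78.1) and 43.3 at Sox3-only sites, a difference of 33.4. The middle 50% of sites lay between 50.3 and 93.1 at shared sites and between 21.3 and 67.3 at Sox3-only sites, so the classes overlapped. Among the strongest 10% of Sox3 peaks were 31.0% of the shared and 5.30% of the Sox3-only sites. Median Sox3 fold enrichment over the local background was 8.75 at shared and 6.57 at Sox3-only sites, and the median pileup was 26 and 16 tags. With only peaks of −log10 q of at least 10 in all lists, the percentile difference was 14.6. With an overlap of 50% of both peaks it was 27.7. Sox3 peaks of higher rank were also wider, and a wider peak meets the 1 bp rule more readily. The part of width in the rank difference was not tested.

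For p63 the order was the other way round and the gap smaller. In replicate 1 the median p63 percentile was 58.9 at shared sites (57.9 to 60.3) and 66.2 at p63-only sites (64.9 to 67.1). In replicate 2 it was 72.7 at shared sites (71.7 to 73.9) and 81.1 at p63-only sites (80.5 to 81.7). The difference was −7.23 and −8.36 percentile points in the 2 lists, with a mean of −7.79 ± 0.80 (SD, n = 2). Median p63 fold enrichment was 6.83 at shared and 7.26 at p63-only sites in replicate 1, and 7.08 and 7.90 in replicate 2. This difference varied with the processing. With p63 sites taken from replicate 1 alone it was 0.042, with replicate 2 alone −1.17, and with a peak in either replicate −0.54. With a peak in both replicates it was −0.83 for an overlap of 50% of both peaks, −1.87 for −log10 q of at least 10 and −13.4 for lists of equal length.

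**Figure D1:**
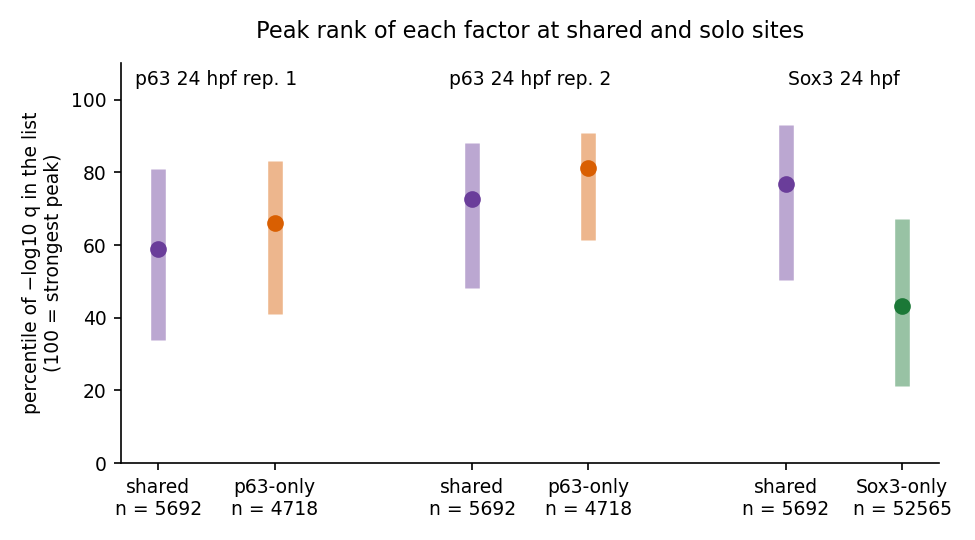
Percentile of −log10 q within each 24 hpf list (y axis, 100 is the strongest peak) at shared, p63-only and Sox3-only sites, with points at the median and bars over the middle 50% of sites. Sox3 had a median of 76.7 at shared and 43.3 at Sox3-only sites, while p63 had medians of 58.9 and 72.7 at shared and 66.2 and 81.1 at p63-only sites.

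Between the weakest and the strongest peaks the overlap followed a different course for each factor. Sorted into deciles of Sox3 rank, 3.23% of the weakest Sox3 regions (decile 1) carried both p63 lists (2.82 to 3.68). The share was 5.34% in decile 5, 12.6% in decile 9 and 26.01% in decile 10 (24.97 to 27.1), higher in each decile than in the one below. Of the 100 strongest Sox3 regions, 58 carried both p63 lists. The 203 shared sites with a peak in all 12 libraries had a median Sox3 percentile of 94.5, and the deciles were not recomputed without them.

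Deciles of p63 rank showed no such slope. In replicate 1 the share of regions with Sox3 lay between 45.4% (decile 9) and 57.0% (decile 10), and in replicate 2 between 45.4% (decile 9) and 57.4% (decile 6). Ranked by the mean percentile of both lists, p63 sites carried Sox3 in 65.6% of cases in decile 1 (62.6 to 68.5), 49.9% in decile 5 and 42.7% in decile 9 (39.6 to 45.7). Decile 10 stood apart at 60.1% (57.1 to 63.1). Within it the strongest sites carried Sox3 most often, with 603 of the top 1000, 334 of the top 500, 82 of the top 100 and 43 of the top 50. Of the 100 strongest shared sites, 48 had a peak in all 12 libraries, and the deciles were not recomputed without such sites. For the sites found in both lists the share was thus highest in decile 1 and lowest in decile 9. The single lists differed at the ends, with 47.6% in decile 1 and 57.0% in decile 10 for replicate 1, and 48.6% and 49.1% for replicate 2.

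**Figure D2:**
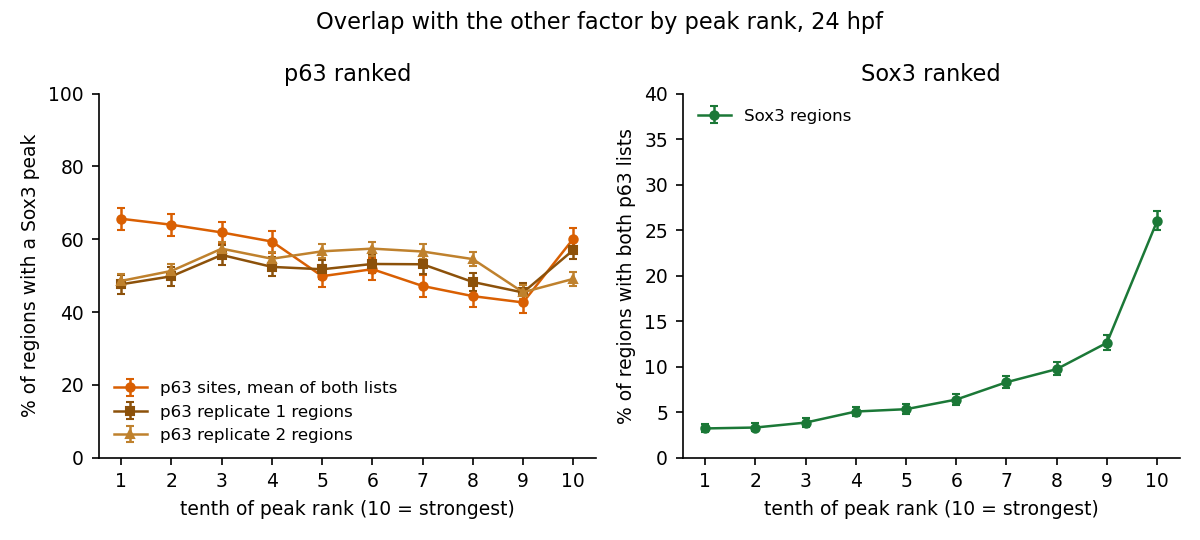
Left, percent of p63 regions with a Sox3 peak by decile of p63 rank, for each list and for the sites found in both. Right, percent of Sox3 regions with both p63 lists by decile of Sox3 rank (10 is the strongest, bars are 95% Clopper-Pearson intervals). The right curve climbs to 26.01%, while the curves on the left stay between 42.7% and 65.6%.

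The 2 factors did not rank the shared sites alike. Across the 5692 shared sites the Spearman correlation of p63 and Sox3 percentiles was −0.16 for p63 replicate 1 and −0.18 for replicate 2, whereas that of the 2 p63 replicates was 0.67. These describe sites that share libraries and neighbourhoods, and sites are not replicates. In the top 10% lay 911 shared sites (16.0%) for p63, 1765 (31.0%) for Sox3 and 152 (2.67%) for both factors. A p63 mean percentile in the lower 50% went with a Sox3 peak in the top 10% at 711 sites (12.5%). At 336 sites (5.90%) p63 was in the top 10% and Sox3 in the lower 50%. A range of 50% holds more sites than one of 10%, so these counts cannot be set directly against the 152.

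Peak widths went with rank. The Sox3 peak had a median width of 284 bp at shared sites (279 to 288) and 187 bp at Sox3-only sites (186 to 188), a difference of 97 bp that was 33 bp with −log10 q of at least 10 and 52 bp with lists of equal length. The p63 peak had medians of 190 bp at shared and 192 bp at p63-only sites in replicate 1, and of 243 bp and 250 bp in replicate 2, a mean difference of −4.50 ± 3.54 bp (SD, n = 2) that turned positive in 6 of the 9 alternative settings tried. Compared within a quartile of the list's rank, shared peaks were the wider ones among strong peaks of either factor. In the strongest quartile the medians at shared and p63-only sites were 289 and 251 bp in replicate 1, and 324 and 294 bp in replicate 2, and those at shared and Sox3-only sites were 371 and 314 bp for Sox3. In the weakest quartile the medians at shared and solo sites differed by little, with 138 and 137 bp, 144 and 137 bp, and 146 and 144 bp in the same 3 lists. A quartile does not fully match strength. In the strongest 1 the median fold enrichment at shared and solo sites was 9.75 and 9.61, 9.16 and 9.31, and 11.9 and 10.5. A wider peak also meets the 1 bp rule of the shared class more readily, and the part of that rule in these widths was not tested. Merged over their lists, the regions had a median width of 371 bp at shared, 273 bp at p63-only and 187 bp at Sox3-only sites, which follows in part from the number of lists merged.

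At shared sites the summits of the 2 factors lay close together, though not as close as those of the 2 p63 replicates. Shared sites were sorted by overlap of peaks with median widths of 190 and 243 bp (p63) and 284 bp (Sox3). Close summits thus follow in part from the sorting. With an overlap of 50% of both peaks the mean of the 2 median distances was 40 bp. The part of the overlap rule in the distance was not tested. The median distance from the p63 to the Sox3 summit was 50 bp in replicate 1 (48 to 51) and 48 bp in replicate 2 (47 to 50). It was within 100 bp at 76.9% and 77.2% of the sites and within 200 bp at 93.0% and 92.9%. The summits of the p63 replicates lay 41 bp apart at shared sites (39 to 42), with 82.6% within 100 bp, and 32 bp apart at p63-only sites (30 to 33), with 90.8% within 100 bp. Joining of separate p63 peaks by a Sox3 peak can raise the replicate distance at shared sites, and its part was not tested. The Sox3 summit lay between the p63 summits or on one of them at 30.8% of the shared sites, and both p63 summits were farther than 100 bp from it at 12.6%. Asking for both p63 summits within 100 bp of the Sox3 summit left 3798 shared sites, or 36.5% of the p63 sites.

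The p63 summits of the replicates lay closer together where the p63 peak was stronger, and their distance to Sox3 changed less. From the weakest to the strongest quartile of p63 rank among the shared sites the replicate summits lay 59, 48, 37 and 24 bp apart. The distance to Sox3 in the same quartiles was 56, 49, 48 and 45 bp for replicate 1 and 55, 50, 44 and 45 bp for replicate 2. In the strongest quartile the p63 summit was thus nearer to its replicate than to Sox3, while in the weakest quartile the distances were alike.

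**Figure D3:**
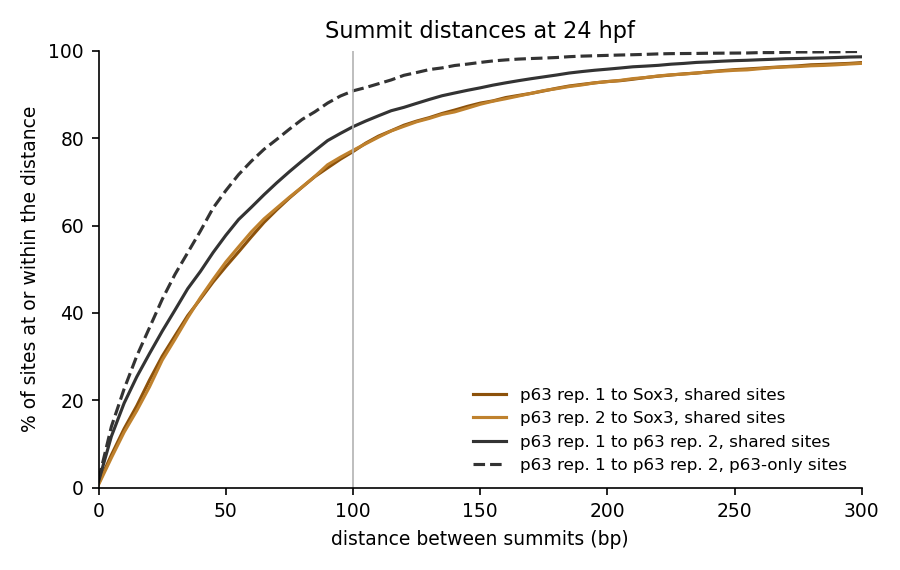
Percent of sites (y axis) whose summits lie at or within a distance in bp (x axis), for p63 to Sox3 at shared sites and for p63 replicate 1 to replicate 2 at shared and p63-only sites. The grey line marks 100 bp, where the p63 to Sox3 curves stand at 76.9% and 77.2% and the replicate curves at 82.6% and 90.8%.

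A p63-only site was usually a few kb from a Sox3 peak. The median gap from the region to the nearest Sox3 peak was 5.64 kb (5.42 to 5.96), with the middle 50% between 2.39 and 12.7 kb. Within 1 kb lay 11.2% of the p63-only sites (10.3 to 12.1), within 10 kb 67.8% (66.4 to 69.1) and within 100 kb 99.0% (98.7 to 99.3), leaving out 16 sites on contigs with no Sox3 peak. Shared sites, measured to the next separate Sox3 peak, had a median of 5.22 kb (5.08 to 5.39) with 16.2% within 1 kb, and Sox3-only sites a median of 5.47 kb (5.41 to 5.54) with 18.5% within 1 kb. The 3 medians thus lay within 0.5 kb of each other, and p63-only sites had fewer Sox3 peaks within 1 kb than the other classes. With the same number of peaks in each list the median for p63-only sites was 26.2 kb, and with −log10 q of at least 10 it was 10.8 kb.

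Towards p63 the distances were longer, with 10410 p63 sites to measure to against 67886 Sox3 peaks. The part of these unequal numbers in the gaps was not tested. A Sox3-only site had a median gap of 42.0 kb to the nearest p63 site (41.4 to 42.7), with 2.04% within 1 kb. The next p63 site was 22.4 kb away from shared sites (21.4 to 23.3) and 26.2 kb away from p63-only sites (24.7 to 28.5).

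**Figure D4:**
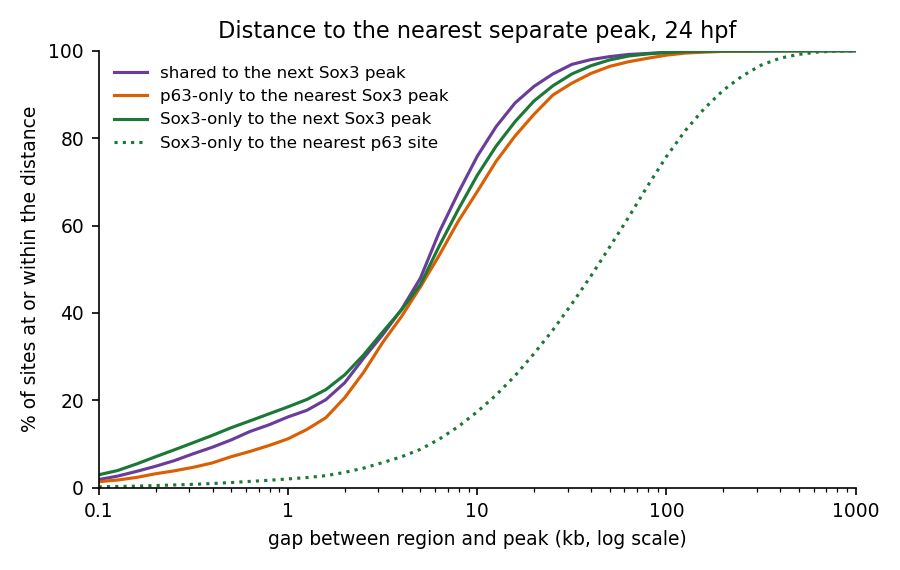
Percent of sites (y axis) with a separate peak at or within a gap in kb (x axis, log scale), from shared, p63-only and Sox3-only sites to Sox3 peaks and from Sox3-only sites to p63 sites. The 3 curves to Sox3 peaks cross 50% between 5.22 and 5.64 kb, and the curve to p63 sites at 42.0 kb.

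For each class the 5 strongest sites by mean percentile over the lists that define it are given, as GRCz10 coordinates. No gene is given for them, as no annotation of this build was used here. The strongest shared site, chr17:53292602-53292870, had fold enrichments of 32.7 and 31.1 in the p63 lists and 33.6 in the Sox3 list, with p63 summits 6 bp apart and Sox3 at 19 and 25 bp from them. At chr20:4437673-4438009 the values were 35.2, 31.6 and 34.6, with p63 summits again 6 bp apart and Sox3 at 15 and 21 bp. Both are narrow regions of 269 and 337 bp in which p63 and Sox3 reached about the same enrichment. The next shared sites were broader and less enriched. At chr10:16842258-16843323, a region of 1066 bp, fold enrichment was 10.1 and 11.8 for p63 and 8.65 for Sox3, and the p63 summits lay 390 bp apart. At chr22:39221293-39222308 it was 13.0, 11.7 and 16.6, and at chr14:19788727-19789423 it was 10.9, 12.3 and 8.85. All 5 sites had a peak in all 12 libraries of the series.

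The strongest p63-only sites had p63 fold enrichments below those of the first 2 shared sites and above those of the other 3. At chr18:11071602-11072038 p63 fold enrichment was 21.5 and 16.7, and the nearest Sox3 peak was 11.4 kb away. It was 16.6 and 14.8 at chr8:48881683-48882041, 16.3 and 17.9 at chr23:46135388-46135683, 16.9 and 19.7 at chr16:39568954-39569338, and 16.5 and 13.2 at chr5:15667806-15668231, with gaps to Sox3 of 6.69, 11.4, 3.04 and 25.9 kb. All 5 had p63 in both libraries at 80% of epiboly, 4 had it in both and 1 in 1 of the libraries at 36 hpf, and none had a peak in any of the 6 Sox3 libraries. The p63-only site nearest to Sox3, chr19:2803386-2803530, abutted a Sox3 peak with a gap of 0 kb, and had p63 percentiles of 61.3 and 6.75. It carried Sox3 in both tp63-/- libraries and in neither WT library at 36 hpf. The one farthest from Sox3, chr4:39285650-39285936, lay 604 kb away, with p63 percentiles of 63.6 and 74.5 and p63 in both libraries at 36 hpf.

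Among Sox3-only sites the strongest, chr3:6555444-6555763, had a Sox3 fold enrichment of 22.0. It was 16.6 at chr14:32329897-32330482, 16.8 at chr10:44032715-44033121, 18.8 at chr20:40403966-40404576 and 14.8 at chr6:43094464-43095051. All 5 had Sox3 in the 4 libraries at 36 hpf. At 3 of them, on chromosomes 3, 14 and 6, both p63 lists at 80% of epiboly held a peak.

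The 9 libraries of other stages and of tp63-/- embryos took no part in sorting the sites, and each was asked for a peak in the 24 hpf regions. In the Sox3 libraries, shared sites were covered most often and p63-only sites hardly at all. At 80% of epiboly Sox3 had a peak at 20.4% of the shared, 0.572% of the p63-only and 4.67% of the Sox3-only sites, against 6.30% of all merged 24 hpf regions. At 36 hpf in tp63-/- embryos it covered 72.5% and 69.2% of the shared, 6.89% and 5.30% of the p63-only and 62.6% and 54.5% of the Sox3-only sites in replicates 1 and 2, against 55.6% and 49.7% of all regions. At 36 hpf in WT embryos it covered 60.8% and 51.3% of the shared, 4.35% and 1.95% of the p63-only and 43.3% and 29.7% of the Sox3-only sites, against 39.6% and 28.6% of all regions. Shared sites exceeded p63-only sites in 5 of 5 libraries, by 51.0 ± 18.6 percentage points (SD, n = 5), and Sox3-only sites in 5 of 5, by 15.9 ± 4.28 points. The libraries differed in stage, genotype and depth, so these SDs do not measure replicate spread. The lowest excess over p63-only sites was 19.8 points, at 80% of epiboly. For each of the differences the two-sided exact sign-flip permutation test over libraries gave p = 0.0625. It is the smallest value that 5 libraries allow, so neither difference passed 0.05. At 36 hpf more tags entered the peak call in the tp63-/- libraries than in WT. They were 14.1 M and 12.9 M against 7.97 M and 5.75 M. The uniquely mapped reads that the study states do not separate the genotypes in this way. Genotype and the number of tags in the call cannot be told apart in these shares. Shared and p63-only sites were split by a Sox3 peak at 24 hpf, so the excess of shared over p63-only sites follows in part from the sorting. Compared with Sox3-only sites, shared sites had stronger Sox3 peaks (median percentile 76.7 against 43.3) and wider regions (371 against 187 bp). The part of Sox3 rank and width in that excess was not tested.

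Most p63-only sites had no Sox3 peak in any other library. None of the 5 other Sox3 libraries had a peak at 20.2% of the shared (19.2 to 21.3), 88.5% of the p63-only (87.6 to 89.4) and 30.3% of the Sox3-only sites (29.9 to 30.7). All 5 had one at 16.0% of the shared, at 0 of 4718 p63-only and at 2.81% of the Sox3-only sites. The share over all merged regions was not computed for these counts. The p63-only class was sorted by the lack of a Sox3 peak at 24 hpf, so its low coverage follows in part from the sorting. The p63-only sites within 1 kb of a 24 hpf Sox3 peak were covered more often than those farther away. In the tp63-/- libraries 14.0% and 10.8% of these 527 sites had Sox3, against 6.47% and 5.08% of the sites at 1 to 10 kb. Of all merged 24 hpf regions, 55.6% and 49.7% had a peak in these libraries.

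**Figure D5:**
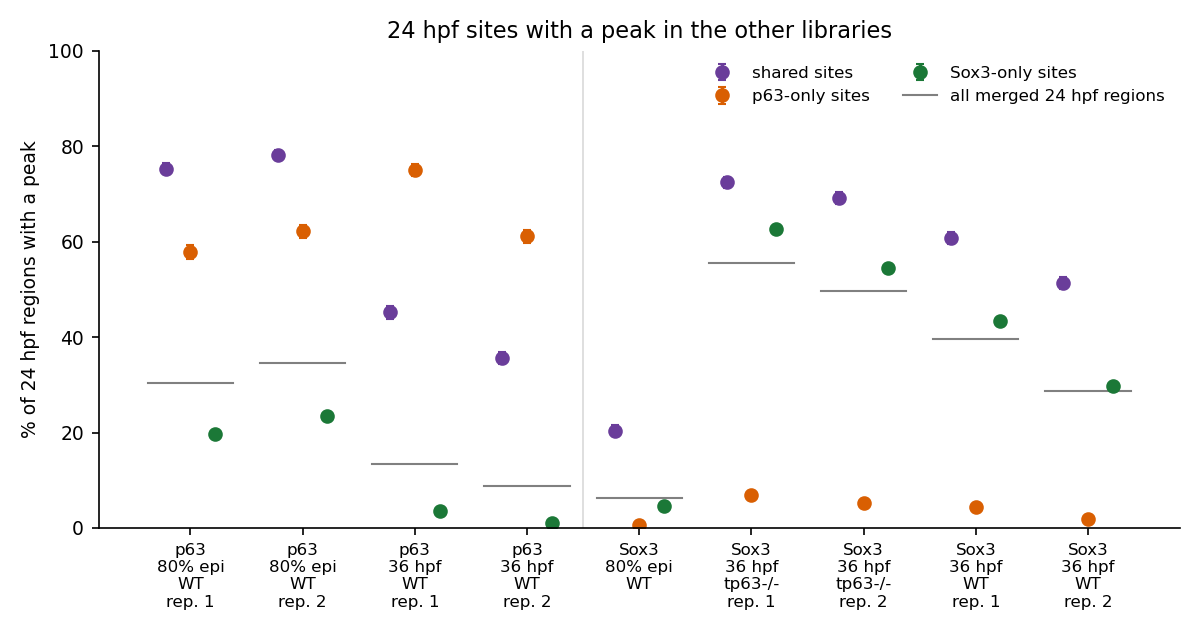
Percent of shared, p63-only and Sox3-only 24 hpf sites (y axis) with a peak in each of the 9 other libraries (x axis), with 95% Clopper-Pearson intervals and a grey line at the share of all merged 24 hpf regions. p63-only sites stood at most at 6.89% in the Sox3 libraries, and the order of shared and p63-only sites is opposite in the p63 libraries of 80% of epiboly and of 36 hpf.

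In the p63 libraries the order of shared and p63-only sites turned with stage. At 80% of epiboly p63 had a peak at 75.3% and 78.2% of the shared, 57.8% and 62.2% of the p63-only and 19.7% and 23.4% of the Sox3-only sites in replicates 1 and 2, against 30.3% and 34.5% of all merged regions. At 36 hpf it had one at 45.2% and 35.6% of the shared, 75.01% and 61.1% of the p63-only and 3.49% and 1.13% of the Sox3-only sites, against 13.3% and 8.85% of all regions. Shared minus p63-only was thus 17.5 and 16.0 points at 80% of epiboly and −29.8 and −25.5 points at 36 hpf. Over all 4 of these libraries shared minus p63-only had a mean of −5.45 ± 25.7 points (SD over both stages, n = 4) and was positive in 2. The planned two-sided exact sign-flip permutation test over them gave p = 0.75, where 4 libraries allow no less than 0.125. The difference between the stages, a comparison outside the plan, was 44.4 points. Its two-sided exact permutation p was 0.333 over the 4 libraries, the smallest that 2 against 2 allow, so this comparison could not pass 0.05. Both libraries of a stage lay on one side and the stages did not overlap. Stage went with depth and list length, since the 80% of epiboly lists came from 20.9 M and 25.1 M tags and the 36 hpf lists from 5.63 M and at most 1.04 M. With the 6045 strongest peaks of every list, 395 shared and 3708 p63-only sites were left. The mean difference was then 9.39 points at 80% of epiboly and −28.7 points at 36 hpf. Lists cut to one length still came from unequal numbers of tags. The part of depth and list length in the order of the classes was not tested.

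The rank of the p63 peak at 24 hpf went with these shares as well. In the weakest quartile of p63 rank among all p63 sites, p63 at 80% of epiboly was present at 67.8% and 72.0% of the shared and at 37.9% and 43.5% of the p63-only sites, and at 36 hpf at 17.2% and 8.81% of the shared and 45.8% and 30.5% of the p63-only sites. In the strongest quartile it was present at 88.4% and 89.6% of the shared and 78.6% and 82.6% of the p63-only sites at 80% of epiboly, and at 90.5% and 81.6% of the shared and 94.3% and 85.5% of the p63-only sites at 36 hpf. The classes thus kept the same order in the strongest quartile, with gaps of 9.81 and 6.998 points at 80% of epiboly and −3.79 and −3.87 points at 36 hpf. At 80% of epiboly the gaps narrowed from each quartile to the next stronger one. At 36 hpf they were widest in quartile 2 (quartile 1 is the weakest), at −35.4 and −28.2 points, against −28.6 and −21.7 in quartile 1. Only the strongest quartile had narrow gaps at 36 hpf.

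Read site by site, shared sites more often had a p63 peak at 80% of epiboly without one at 36 hpf. p63 was in both libraries at 80% of epiboly and in neither at 36 hpf at 34.9% of the shared (33.7 to 36.2), 10.3% of the p63-only (9.47 to 11.2) and 12.7% of the Sox3-only sites. The reverse pattern, in neither library at 80% of epiboly and in both at 36 hpf, was found at 4.30% of the shared (3.79 to 4.86), 17.6% of the p63-only (16.6 to 18.8) and 0.331% of the Sox3-only sites. All 4 libraries held p63 at 26.9% of the shared, 34.8% of the p63-only and 0.282% of the Sox3-only sites. None of the 4 held it at 11% of the shared, 8.71% of the p63-only and 68.5% of the Sox3-only sites. The share over all merged regions was not computed for these patterns. Fewer tags entered the call at 36 hpf, with 5.63 M and at most 1.04 M, against 20.9 M and 25.1 M at 80% of epiboly. A site without a peak at 36 hpf did not pass the call, which does not show absent binding. The p63 peaks that defined the sites ranked lower, by median, at shared than at p63-only sites. Shared regions were also the widest of the classes. The part of depth, p63 rank and width in these shares was not tested.

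A small set of shared sites had a peak in every library of the series, with either antibody in WT embryos and with Sox3 in tp63-/- embryos. The series has no p63 library of tp63-/- embryos. There were 203 such sites, 3.57% of the shared class (3.10 to 4.08) and 0.248% of all merged 24 hpf regions. The libraries that sorted the sites are among the 12, so only a shared site can have a peak in all of them. These sites were concentrated at the top of the class, with 48 among the 100 strongest shared sites and 103 among the 500 strongest. Their median percentiles were 85.1 and 89.0 in the p63 lists and 94.5 in the Sox3 list, while the other shared sites had 57.9, 71.8 and 75.5. Without these 203 sites, left out after they had been seen, 53.8% of p63 sites carried Sox3, the p63 difference between shared and p63-only sites was −8.78 percentile points and the Sox3 difference between shared and Sox3-only sites was 32.2.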

How the data were processed

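ChIPmentation of p63 and Sox3 was analysed from the authors' narrowPeak lists on GRCz10 (danRer10). Per the labels and the study's methods, reads were aligned with Bowtie and peaks called per library with MACS2 at a false discovery rate of 0.001, a genome size of 1.5 Gb and no stated control, with versions not given in the sources used here. The deposited fold is the ratio of the summit pileup to the local background, both raised by a pseudocount of 1. The deposited −log10 p and −log10 q grow with depth, the deposited score is 10 times −log10 q, and none is scaled between libraries, so all were ranked within a list. Tags behind each call were recovered from the deposited fold and −log10 p by the caller's Poisson formula.

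Peaks sharing at least 1 bp were merged, and the strongest peak of each list stood for a region (Python 3.11.15, pandas 2.3.3, scipy 1.17.1). Scripts were tested on simulated data and checked with bedtools 2.31.1. Intervals are 95% Clopper-Pearson for shares and order-statistic for medians. They cover counting error only, and neighbouring sites are not independent. The labels do not say whether replicates were separate clutches. Named sites are the 5 per class with the highest mean percentile on chromosomes 1 to 25, and the p63-only sites nearest to and farthest from Sox3. Classes, comparisons and alternatives were chosen with earlier results of these data known.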

Additional observations from a re-analysis of the deposited data

Results flagged for a closer look

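The p63 libraries of the other stages set the shared and p63-only sites of 24 hpf in opposite order. Shared minus p63-only share with a peak was 17.5 and 16.0 percentage points in replicates 1 and 2 at 80% of epiboly, and −29.8 and −25.5 points at 36 hpf, so each library of one stage moved one way and each of the other stage the opposite way. The difference of 44.4 points, a comparison outside the plan, had an exact permutation p = 0.333, the smallest that 2 libraries against 2 allow. The planned exact sign-flip permutation test over all 4 libraries gave p = 0.75. Stage went with depth and list length, and their part was not tested. In the strongest quartile of p63 rank the gaps were 9.81 and 6.998 points at 80% of epiboly and −3.79 and −3.87 points at 36 hpf.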

How the results depend on the processing

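No paired analysis was possible because the labels do not pair the single Sox3 library at 24 hpf with either p63 library. With 1 Sox3 library, depth and list length set which sites count as solo. Motif content and gene position were not analysed here.

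The main setting gave 5692 shared sites, 54.7% of p63 sites with Sox3, a p63 rank difference of −7.79 and a Sox3 rank difference of 33.4 percentile points, width differences of −4.50 bp (p63) and 97 bp (Sox3), a summit distance of 49 bp (mean of the 2 lists) and a gap of 5.64 kb. In the same order, the 14707 strongest peaks of every list gave 2111, 24.7%, −13.4, 27.0, −18 bp, 52 bp, 43.5 bp and 26.2 kb. A −log10 q of at least 10 gave 1525, 34.3%, −1.87, 14.6, 18.3 bp, 33 bp, 41 bp and 10.8 kb. A fold enrichment of at least 5 gave 4720, 51.0%, −6.92, 30.6, 0.50 bp, 88 bp, 47.8 bp and 6.22 kb. Overlap of 50% of both peaks gave 3171, 38.7%, −0.83, 27.7, 17 bp, 61 bp, 40 bp and 3.43 kb. A p63 peak in either replicate gave 15226, 51.8%, −0.54, 13 bp for p63 width and 86 bp for Sox3 width. With p63 replicate 1 or 2 left out, the number of shared sites lay between 7406 and 13433, the share between 50.7% and 52.99%, the p63 rank difference between −1.17 and 0.042, the Sox3 rank difference between 28.4 and 32.9, the p63 width difference at 13 bp and the Sox3 width difference between 82 and 87 bp. Chromosomes 1 to 25 alone moved none of these beyond its error.

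Alternatives added after seeing the data were the summit rule (3798 shared sites, 36.5% of p63 sites), shortening the Sox3 list alone (2758, 26.6%) and leaving out sites with a peak in all 12 libraries (p63 rank −8.78, Sox3 rank 32.2). For shared minus p63-only sites in other p63 libraries, the mean was 16.8 points at 80% of epiboly and −27.6 at 36 hpf. Peaks of −log10 q from 10 upwards gave 13.5 and −18.1, and equal lists 9.39 at 80% of epiboly. The highest quartile of p63 rank gave 8.40 and −3.83, and the lowest 29.2 at 80% of epiboly. Over the other Sox3 libraries the mean stayed positive, at 51.0 points and between 47.4 and 58.8 with 1 library left out. The cause of these shifts was not tested.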
